A study of Mus musculus with 16 samples.

Results

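The genes of the BCL2 family decide at the mitochondrion whether a cell lives or dies, and 10 of them were followed here in mouse bone marrow-derived monocytes (BMDMs), the precursors from which osteoclasts form. The members were the pro-survival genes Mcl1, Bcl2l1, Bcl2, Bcl2a1b and Bcl2a1d, the effectors Bax and Bak1, and the BH3-only genes Bcl2l11, Bid and Bbc3. They were taken by gene symbol from a table of 21898 genes, and all 10 were found there on 1 row each. BMDMs from femurs and tibias of C57BL/6 mice aged 4 to 6 weeks were sequenced in 4 groups of 4 libraries. The MR + iBRD9 cells received M-CSF at 50 ng/ml, RANKL at 100 ng/ml and iBRD9 at 1 µM. The MR + vector cells received the same M-CSF and RANKL with vector in place of iBRD9. The M + iBRD9 cells received M-CSF and iBRD9 without RANKL, and the M + vector cells M-CSF and vector alone. M-CSF, the survival factor of the macrophage lineage, was therefore present in every group, and no group shows these genes without it. RANKL is the cytokine that starts osteoclast differentiation, and iBRD9 is a small-molecule inhibitor of BRD9, a bromodomain protein of the chromatin remodelling complex known as non-canonical BAF. The treatments lasted 1 day, so the RANKL groups held early precursors and not mature osteoclasts. The labels number the replicates 1 to 4 without saying whether they came from separate cultures or mice, and p-values therefore rest on the spread among these libraries, which may be technical.

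Pro-survival proteins such as MCL-1, BCL-XL (from Bcl2l1), BCL-2 and A1 hold the pore-forming effectors BAX and BAK in check. BH3-only proteins such as BIM (from Bcl2l11), BID and PUMA (from Bbc3) bind the pro-survival proteins, and some also bind the effectors directly. Once BAX or BAK opens the outer mitochondrial membrane, cytochrome c leaves, the apoptosome forms and caspases are activated. Macrophages and osteoclasts die by this route when M-CSF is withdrawn, and BIM is known as a trigger of the death of osteoclasts. Much of the control over these proteins lies in their binding and breakdown, which RNA sequencing does not measure.

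The libraries held 15372775 to 18987926 counted reads, and all 10 members were among the 11559 genes tested. The 8 macrophage markers summed to 20918 CPM (counts scaled to library size) or more in every library, most of it from Lyz2, and every one of them was detected. Under RANKL in vector cells 6 of the 8 fell and Lyz2 rose, and in iBRD9 cells 7 of the 8 fell. Under iBRD9, 3 of the 8 fell with RANKL and 3 rose without it. The 8 osteoclast markers summed to 837 to 872 CPM in MR + iBRD9, 719.6 to 775 CPM in MR + vector, 184 to 197 CPM in M + iBRD9 and 173 to 182 CPM in M + vector, with Calcr at 0 in every library. Mmp9 made up most of the sum with RANKL, at 783 ± 20.3 CPM in MR + iBRD9 and 666 ± 26.1 CPM in MR + vector, against 90.8 ± 7.15 CPM in M + iBRD9 and 73.1 ± 5.25 CPM in M + vector. Of the 7 osteoclast markers tested, 4 rose and 2, Atp6v0d2 and Itgb3, fell under RANKL in vector cells, and 5 rose and 2 fell in iBRD9 cells. Under iBRD9, Mmp9 rose and Ctsk, the gene of the bone protease cathepsin K, fell, both with and without RANKL. Ctsk averaged 5.56 ± 0.67 CPM in MR + iBRD9 and 15.1 ± 0.81 CPM in MR + vector, and 2.81 ± 1.00 CPM in M + iBRD9 and 6.37 ± 0.98 CPM in M + vector. The part of these marker shifts in the changes of the BCL2 family was not tested. The 12 neutrophil markers summed to 71.0 to 89.7 CPM in MR + iBRD9 and 101 to 121 CPM in MR + vector, against 113 to 147 CPM in M + iBRD9 and 118 to 127 CPM in M + vector. Markers of B cells, T and NK cells, dendritic cells and mast cells and basophils each summed to under 5 CPM in every library, with Cd3e, Cd3d, Cd8a and Mcpt4 at 0 in all of them. In bulk RNA, fewer cells of a type and less RNA per cell cannot be told apart. Brd9 itself, whose protein the inhibitor blocks, was called in no comparison and lay between 54.1 and 55.7 CPM in the group means. Transcripts of the M-CSF receptor gene Csf1r fell by 0.32 ± 0.03 on the log2 scale under RANKL in vector cells, and those of the RANKL receptor gene Tnfrsf11a rose by 0.23 ± 0.05.

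3 libraries stood apart from the others. M + iBRD9 replicates 2 and 3 and MR + iBRD9 replicate 3 had 96.7 to 109 CPM of the ribosomal protein gene Rps28, and the other 13 libraries had 50.6 to 74.3 CPM. These libraries came to notice because Bax was highest in them, and the calls that changed without them are given beside each gene, from a fit chosen after the values had been seen. That fit leaves 2 libraries in M + iBRD9 and 3 in MR + iBRD9.

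Compared per length, in FPKM (fragments per kilobase of gene length and library size), Mcl1 was the highest of the members in every library. It averaged 226 ± 6.14 FPKM in MR + iBRD9, 256 ± 7.34 FPKM in MR + vector, 193 ± 9.14 FPKM in M + iBRD9 and 186 ± 5.35 FPKM in M + vector (SD, n = 4 each). A middle tier of Bax, Bak1, Bid and Bcl2l1 followed, with group means between 18.4 and 34.3 FPKM. Its order differed between the groups, since Bcl2l1 stood last of the tier in MR + iBRD9, at 19.2 FPKM, and in MR + vector, at 18.4 FPKM, and first of it in M + vector, at 30.2 FPKM. In M + vector the ranges of Bcl2l1, Bax and Bid overlapped each with the next. Within each of those libraries Bax nevertheless lay above Bid, whereas the order of Bcl2l1 and Bax differed between libraries. These orders were not tested. Bbc3, at 12.7 to 15.6 FPKM, and Bcl2l11, at 8.90 to 10.2 FPKM, came next and overlapped neither each other nor their neighbours in any group. Bcl2a1d lay at 2.24 to 4.08 FPKM and Bcl2 at 1.58 to 2.39 FPKM, and the ranges of the pair overlapped in both RANKL groups. Bcl2a1b was the lowest, with group means of 0.146 to 0.999 FPKM. Reads that fit both Bcl2a1b and Bcl2a1d may be uncounted, so the levels of this pair may be too low.

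**Figure D1:**
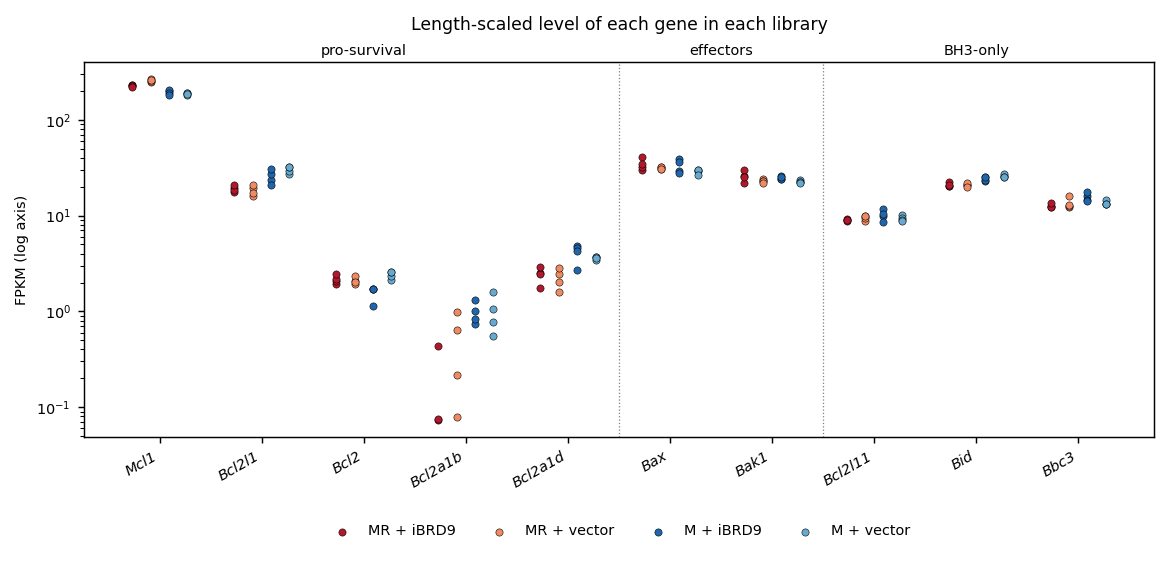
FPKM of the 10 genes on a log axis, grouped by role, with a point for each library and a colour for each group. Mcl1 sits above 179 FPKM in all 16 libraries and Bcl2a1b at no more than 1.60 FPKM; the MR + iBRD9 library with no Bcl2a1b read is not drawn.

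Under RANKL the pro-survival genes moved in opposite directions, and neither effector gene was called. In vector cells (MR + vector over M + vector) Mcl1 rose, and Bcl2l1, Bcl2a1d and Bid fell, so that 4 of 10 members were called at an adjusted p below 0.05, against 40.7% of all genes tested. The median change of the members was -0.13 on the log2 scale, beside 0.00 for all genes tested. In iBRD9 cells (MR + iBRD9 over M + iBRD9) Mcl1 and Bcl2 rose, and Bcl2l1, Bcl2a1b, Bcl2a1d, Bcl2l11, Bid and Bbc3 fell. These 8 of 10 members stand against 50.4% of all genes, with a median of -0.25 for the members and -0.01 for all genes. Without the 3 libraries with high Rps28, the calls of Bcl2, Bcl2a1d and Bcl2l11 under RANKL in iBRD9 cells were lost, and the other calls stood. That fit has fewer libraries, and the part of their number in these losses was not tested.

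Under iBRD9, 1 of 10 members was called in each setting. With RANKL present (MR + iBRD9 over MR + vector), Mcl1 fell and was the only member called, beside 2.77% of all genes. Without RANKL (M + iBRD9 over M + vector), Bcl2 fell and was the only member called, beside 6.81% of all genes. The difference between these 2 responses, the interaction, was called for Mcl1 and Bcl2, 2 of 10 members, beside 2.08% of all genes. Without the 3 libraries with high Rps28 no member was called in the interaction, and 32 genes were called in it over the whole table, against 241 with all libraries. The comparisons share groups, so their values for a gene are given side by side and not as separate evidence.

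**Figure D2:**
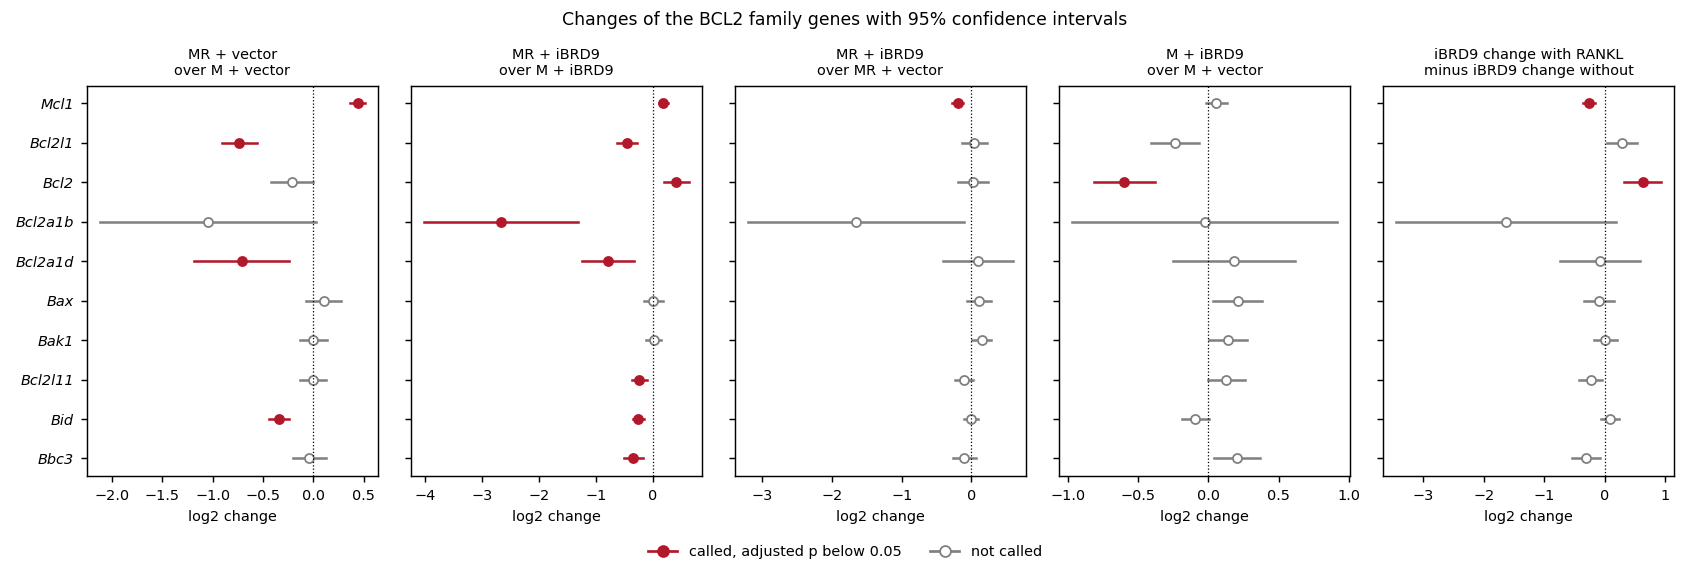
Log2 changes of the 10 genes in the 4 comparisons and in the interaction, with unadjusted 95% confidence intervals from the edgeR fit. Filled red points were called at an adjusted p below 0.05, and open grey points were not. Mcl1 lies to the right of 0 in both RANKL panels and to the left in the iBRD9 panel with RANKL; each panel has its own scale.

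Mcl1 (ENSMUSG00000038612, chromosome 3, 95566099 to 95570487, GRCm39) encodes MCL-1, a short-lived pro-survival protein whose level depends on steady synthesis. Mcl1 had 774, 773, 753 and 737 CPM in MR + iBRD9 and 848, 899, 855 and 885 CPM in MR + vector. It had 680.2, 700.4, 659.9 and 635 CPM in M + iBRD9 and 662, 648, 618 and 641 CPM in M + vector. The RANKL libraries lay above all libraries without RANKL, and within RANKL the iBRD9 libraries lay below all vector libraries. Without RANKL the iBRD9 and vector libraries overlapped. Mcl1 rose by 0.44 ± 0.04 on the log2 scale under RANKL in vector cells (SE, adjusted p = 4.33e-12) and by 0.18 ± 0.04 under RANKL in iBRD9 cells (adjusted p = 6.78e-05). Under iBRD9 with RANKL it fell by 0.20 ± 0.04 (adjusted p = 6.12e-04), which is 0.871-fold, whereas without RANKL its change was 0.06 ± 0.04 (adjusted p = 0.384). The interaction was -0.26 ± 0.05 (adjusted p = 0.00675). Each of these 4 calls stood when any 1 library was left out, but the interaction was not called without the 3 libraries with high Rps28, at -0.22 and an adjusted p of 0.0726. The fall of Mcl1 under iBRD9 with RANKL was called without them too, at -0.19 (adjusted p = 0.00247).

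Bcl2l1 (ENSMUSG00000007659, chromosome 2, 152622588 to 152673648) encodes BCL-XL, a longer-lived guardian that holds both BAX and BAK. Bcl2l1 had 79.0, 86.9, 84.3 and 95.2 CPM in MR + iBRD9 and 89.5, 73.2, 94.2 and 78.6 CPM in MR + vector. Without RANKL it had 108, 96.4, 126 and 144 CPM in M + iBRD9 and 126, 134, 147 and 151 CPM in M + vector. All 8 RANKL libraries lay below all 8 libraries without RANKL, the nearest pair being 95.2 CPM in MR + iBRD9 and 96.4 CPM in M + iBRD9. Bcl2l1 fell by 0.74 ± 0.09 on the log2 scale under RANKL in vector cells (adjusted p = 1.25e-08) and by 0.46 ± 0.09 in iBRD9 cells (adjusted p = 3.62e-05). Its direction under RANKL was thus opposite to that of Mcl1 in both settings. iBRD9 with RANKL gave 0.04 ± 0.09 (adjusted p = 0.906, 95% interval -0.14 to 0.22). iBRD9 without RANKL gave -0.24 ± 0.08 (adjusted p = 0.0848). That change was called without M + iBRD9 replicate 4, at -0.35 (adjusted p = 0.00169), and with no filter on low counts, at -0.24 (adjusted p = 0.0016). It was also called with the replicate number as a block. It was not called without the 3 libraries with high Rps28, at -0.15 (adjusted p = 0.522). The interaction of Bcl2l1 was 0.28 ± 0.12 (adjusted p = 0.275), and it too was called without M + iBRD9 replicate 4 (0.40, adjusted p = 0.0197) and with no filter (0.29, adjusted p = 0.0299). The M + iBRD9 libraries were the most spread of the groups, with a coefficient of variation of 17.5%.

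Bcl2 (ENSMUSG00000057329, chromosome 1, 106465908 to 106642004) encodes BCL-2, the founding guardian of the family, which in osteoclasts is known as a target of the transcription factor MITF. Bcl2 had 17.4, 18.7, 19.5 and 22.2 CPM in MR + iBRD9 and 17.8, 18.9, 21.5 and 18.3 CPM in MR + vector. Without RANKL it had 15.9, 10.7, 15.8 and 16.2 CPM in M + iBRD9 and 19.6, 21.5, 23.5 and 23.8 CPM in M + vector. The M + iBRD9 libraries lay below all the others, and replicate 2 lay furthest down, while the 2 RANKL groups overlapped. Bcl2 fell by 0.60 ± 0.11 on the log2 scale under iBRD9 without RANKL (adjusted p = 5.16e-04), a call that stood without any 1 library, with adjusted p of at most 0.00359, and without the 3 libraries with high Rps28 (-0.47, adjusted p = 0.0216). With RANKL the iBRD9 change was 0.03 ± 0.11 (adjusted p = 0.958, 95% interval -0.19 to 0.24). The interaction was 0.62 ± 0.15 (adjusted p = 0.0222). That interaction was lost without M + vector replicate 3, without MR + vector replicate 2 or 4, or without MR + iBRD9 replicate 4, where the adjusted p reached 0.0805, and without the 3 libraries with high Rps28, at 0.49 (adjusted p = 0.139). RANKL gave -0.21 ± 0.10 in vector cells (adjusted p = 0.107), and Bcl2 rose by 0.41 ± 0.11 in iBRD9 cells (adjusted p = 0.00192), a call lost without the 3 libraries (0.29, adjusted p = 0.059).

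**Figure D3:**
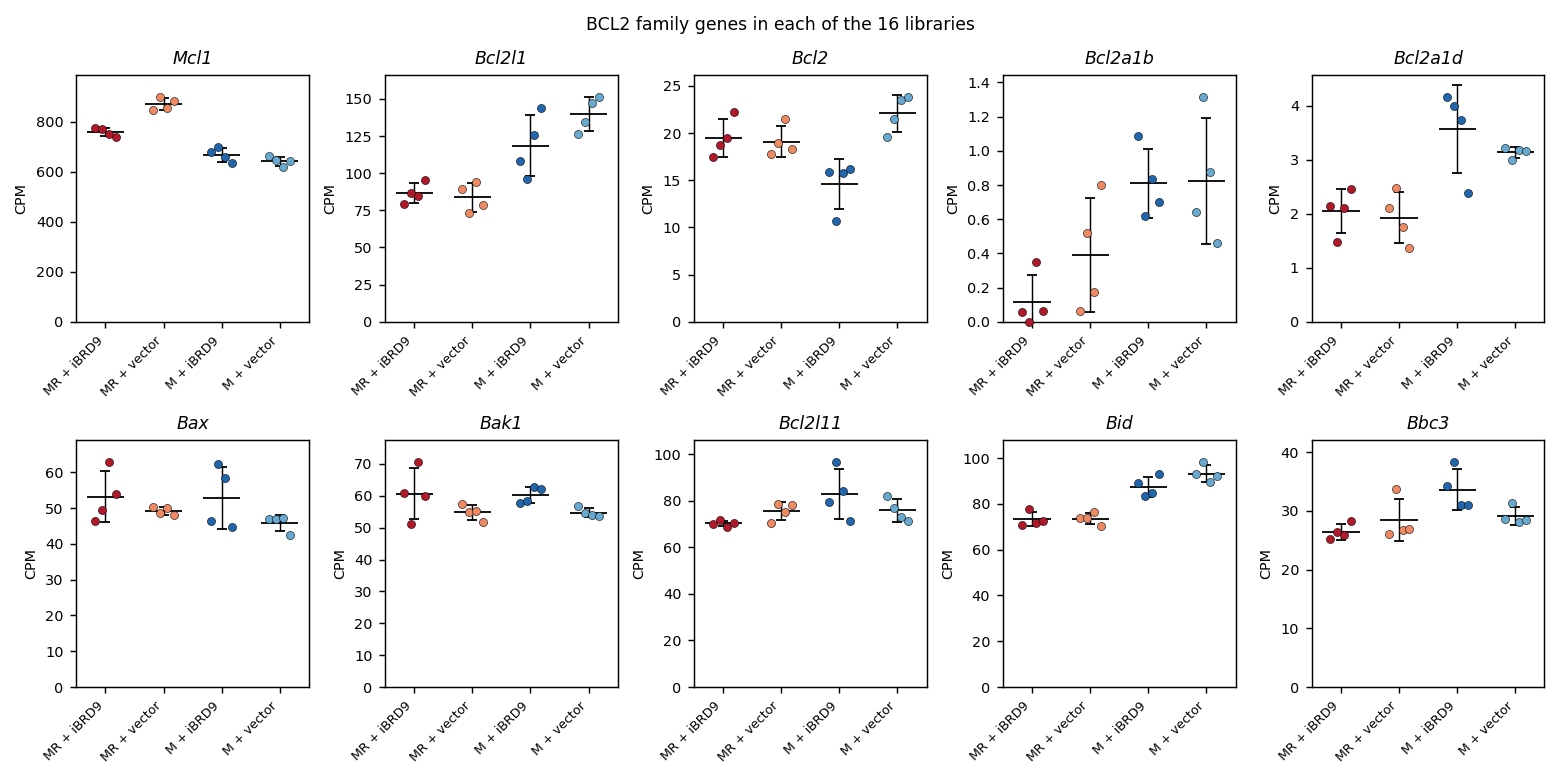
CPM of the 10 genes, 1 panel each, with a point for each library, a horizontal bar for the group mean and an error bar of 1 SD (n = 4 libraries per group). Mcl1 is highest in MR + vector, at 848 to 899 CPM, Bcl2l1 is lower in both RANKL groups, and Bcl2 is lowest in M + iBRD9, at 10.7 to 16.2 CPM.

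A1 is a small pro-survival protein of blood cells and a classical product of NF-kB signalling. The mouse carries several near-identical A1 copies on chromosome 9, so reads can be split between their rows and each row is uncertain. The copies Bcl2a1a (88838953 to 88844472, plus strand), Bcl2a1b (ENSMUSG00000089929, 89081262 to 89089880, plus strand) and Bcl2a1d (ENSMUSG00000099974, 88605338 to 88613967, minus strand) each have a coding sequence of 519 bases in the GENCODE annotation of GRCm39. Between them 12 positions differ. Bcl2a1b and Bcl2a1d differ at 6 positions (98.8% identity), Bcl2a1a and Bcl2a1d at 7 (98.7%) and Bcl2a1a and Bcl2a1b at 11 (97.9%), and the longest run that a pair shares is 314 bases. Reads over any of these positions can help to tell copies apart, and sequence outside the coding bases was not compared. The first 120 coding bases hold 7 of the 12 positions, and no stretch of that length holds more. They are shown with the differing positions in capitals:
Bcl2a1a: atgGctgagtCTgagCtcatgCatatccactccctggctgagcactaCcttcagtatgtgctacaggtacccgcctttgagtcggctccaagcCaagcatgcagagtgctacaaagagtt
Bcl2a1b: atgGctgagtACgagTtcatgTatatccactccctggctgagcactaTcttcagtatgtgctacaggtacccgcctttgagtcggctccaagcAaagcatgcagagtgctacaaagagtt
Bcl2a1d: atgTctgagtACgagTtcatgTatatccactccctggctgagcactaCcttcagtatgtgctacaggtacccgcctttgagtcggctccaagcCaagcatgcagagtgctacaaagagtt

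The counts on the A1 rows were small. Bcl2a1d, the highest of them, had 36, 24, 36 and 40 reads in MR + iBRD9, 33, 38, 30 and 24 in MR + vector, 69, 71, 67 and 44 in M + iBRD9 and 55, 50, 58 and 55 in M + vector. In CPM, every MR + vector library lay below every M + vector library, and M + iBRD9 replicate 4, at 2.38 CPM, overlapped the MR + iBRD9 libraries. Bcl2a1d fell by 0.71 ± 0.23 on the log2 scale under RANKL in vector cells (adjusted p = 0.0135) and by 0.80 ± 0.23 in iBRD9 cells (adjusted p = 0.0037). The first call was lost without MR + vector replicate 4, at an adjusted p of 0.0647, and the second without the 3 libraries with high Rps28, at -0.67 (adjusted p = 0.0827).

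Bcl2a1b had 1, 0, 6 and 1 reads in MR + iBRD9, 1, 8, 3 and 14 in MR + vector, 18, 11, 15 and 13 in M + iBRD9 and 11, 22, 16 and 8 in M + vector. The MR + iBRD9 libraries lay below all M + iBRD9 libraries, and the vector groups overlapped. Bcl2a1b fell by 2.67 ± 0.66 under RANKL in iBRD9 cells (adjusted p = 0.00108), with 8 reads in all in MR + iBRD9 against 57 in M + iBRD9. Without MR + iBRD9 replicate 3, which held 6 of the 8 reads, the log2 change was -4.09. In vector cells the change was -1.05 ± 0.53 (adjusted p = 0.115), and it was called without MR + vector replicate 4 (-1.69, adjusted p = 0.031). iBRD9 gave -1.66 ± 0.76 with RANKL (adjusted p = 0.334) and -0.03 ± 0.46 without it (adjusted p = 0.983). The 95% intervals were -3.20 to -0.11 and -0.97 to 0.92 at these counts. The intervals are not adjusted for the number of genes, so the first excludes 0 although the change was not called.

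Bcl2a1a, which is no member and failed the filter on low counts, went the other way. It had 11, 9, 5 and 8 reads in MR + iBRD9, 8, 11, 9 and 8 in MR + vector, 0, 3, 0 and 6 in M + iBRD9 and 1, 1, 2 and 3 in M + vector. In a fit with no filter Bcl2a1a rose by 2.36 ± 0.78 under RANKL in vector cells (adjusted p = 0.0116) and by 1.93 ± 0.76 in iBRD9 cells (adjusted p = 0.0329). Summed over its libraries, each RANKL group thus held more reads of Bcl2a1a and fewer of Bcl2a1b and Bcl2a1d than the group without RANKL, although single libraries of Bcl2a1a and Bcl2a1b overlapped. Bcl2a1c had no read in any library, where up to 3 reads per library could go unseen by counting error. This limit does not cover reads left uncounted because they fit another copy. With the copies summed, A1 had 48, 33, 47 and 49 reads in MR + iBRD9, 42, 57, 42 and 46 in MR + vector, 87, 85, 82 and 63 in M + iBRD9 and 67, 73, 76 and 66 in M + vector. The summed row fell by 0.51 ± 0.19 under RANKL in vector cells (adjusted p = 0.0332) and by 0.75 ± 0.19 in iBRD9 cells (adjusted p = 0.00131). iBRD9 gave -0.10 ± 0.20 on the sum with RANKL (adjusted p = 0.898) and 0.14 ± 0.18 without it (adjusted p = 0.713). Reads left uncounted because they fit more than 1 copy would be missing from the sum too. Neutrophils also express A1, and their markers summed lowest in MR + iBRD9, as given above, and the part of those cells in the A1 counts was not tested.

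**Figure D4:**
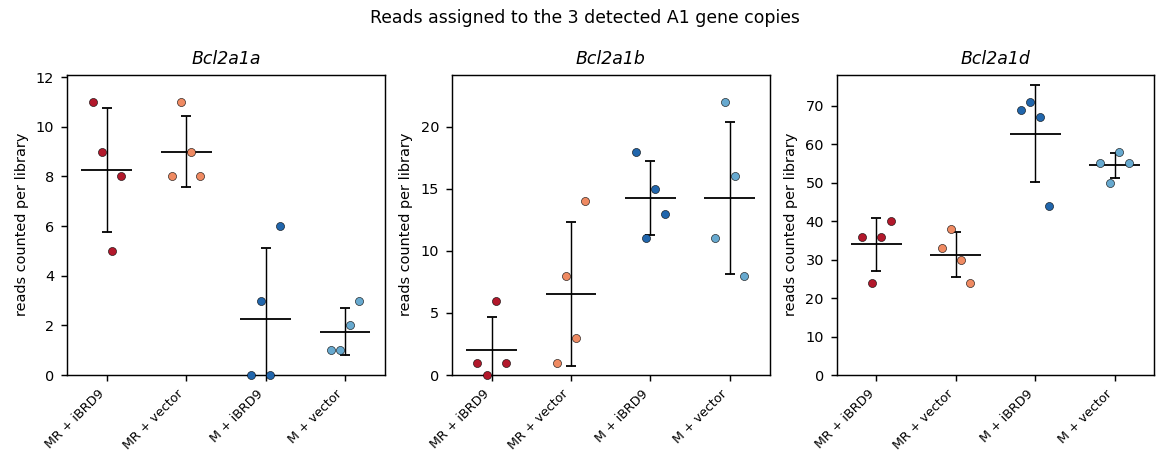
Reads counted on the rows of the 3 detected A1 copies, with a point for each library, a bar for the group mean and an error bar of 1 SD (n = 4 libraries per group). The RANKL groups have higher means for Bcl2a1a, at 5 to 11 reads, and lower means for Bcl2a1d, at 24 to 40 reads; Bcl2a1b is lowest in MR + iBRD9, at 0 to 6 reads.

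Neither effector gene was called in any comparison. Bax (ENSMUSG00000003873, chromosome 7, 45111121 to 45116322), which encodes the effector that moves from the cytosol to the mitochondrion, had 46.5, 49.5, 62.8 and 54.0 CPM in MR + iBRD9 and 50.3, 48.7, 49.9 and 47.9 CPM in MR + vector. Without RANKL, Bax had 46.4, 62.2, 58.3 and 44.7 CPM in M + iBRD9 and 46.9, 47.0, 47.1 and 42.4 CPM in M + vector. The vector groups were tight and did not overlap, whereas the iBRD9 groups each held 1 or 2 high libraries, and these were the libraries with high Rps28. iBRD9 gave 0.21 ± 0.08 for Bax without RANKL (adjusted p = 0.149) and 0.11 ± 0.08 with it (adjusted p = 0.63). Without the 3 libraries the values were -0.01 and 0.03. Those libraries came to notice for their high Bax, so leaving them out was bound to lower these values. The lower values are therefore no test of the Bax change. Without M + iBRD9 replicate 4, the lowest of that group, the change without RANKL was called, at 0.27 (adjusted p = 0.0251). RANKL gave 0.10 ± 0.09 in vector cells (adjusted p = 0.362) and 0.01 ± 0.08 in iBRD9 cells (adjusted p = 0.95).

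**Figure D5:**
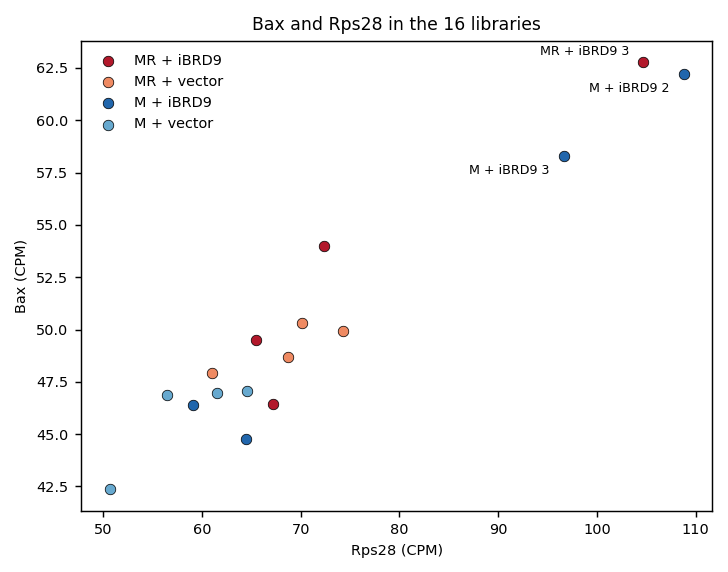
CPM of Bax against CPM of Rps28, with a point for each of the 16 libraries coloured by group. The 3 labelled iBRD9 libraries, at 96.7 to 109 CPM of Rps28, have the 3 highest Bax values, at 58.3 to 62.8 CPM. These libraries came to notice for their high Bax.

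Bak1 (ENSMUSG00000057789, chromosome 17, 27238784 to 27247983), which encodes the effector that resides in the outer mitochondrial membrane, had 61.0, 51.0, 70.5 and 59.9 CPM in MR + iBRD9 and 57.3, 55.0, 55.1 and 51.6 CPM in MR + vector. Bak1 had 57.7, 58.5, 62.7 and 62.0 CPM in M + iBRD9 and 56.9, 54.6, 53.9 and 53.5 CPM in M + vector. The M + iBRD9 libraries lay above all M + vector libraries, and the RANKL groups overlapped. The iBRD9 changes of Bak1 were 0.15 ± 0.07 with RANKL (adjusted p = 0.313) and 0.14 ± 0.07 without it (adjusted p = 0.227). The change with RANKL was 0.07 without MR + iBRD9 replicate 3, the library of that group with high Rps28, and likewise without the 3 libraries. RANKL gave 0.00 ± 0.07 in vector cells (95% interval -0.13 to 0.13) and 0.01 ± 0.07 in iBRD9 cells (95% interval -0.12 to 0.15), and both missed the threshold by far, at adjusted p of 0.999 and 0.916.

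Of the BH3-only genes, Bid fell under RANKL in both settings. Bid (ENSMUSG00000004446, chromosome 6, 120868891 to 120893814) encodes the protein that caspase-8 cleaves to link death receptors to the mitochondrion. Bid had 71.0, 77.6, 71.8 and 72.6 CPM in MR + iBRD9 and 73.8, 73.9, 76.4 and 70.3 CPM in MR + vector, against 89.0, 83.2, 84.7 and 93.0 CPM in M + iBRD9 and 93.1, 98.1, 89.5 and 92.2 CPM in M + vector. All 8 RANKL libraries lay below all 8 libraries without RANKL. Bid fell by 0.34 ± 0.05 under RANKL in vector cells (adjusted p = 8.31e-07) and by 0.26 ± 0.05 in iBRD9 cells (adjusted p = 5.43e-05). The iBRD9 changes of Bid were -0.01 ± 0.05 with RANKL and -0.09 ± 0.05 without it, and neither was called (adjusted p = 0.978 and 0.293).

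Bcl2l11 (ENSMUSG00000027381, chromosome 2, 127967958 to 128004467), the gene of BIM, had 69.9, 71.8, 68.7 and 70.4 CPM in MR + iBRD9 and 70.5, 78.4, 75.0 and 78.3 CPM in MR + vector, against 79.4, 96.4, 84.2 and 71.2 CPM in M + iBRD9 and 82.2, 76.9, 72.8 and 71.4 CPM in M + vector. The MR + iBRD9 libraries were the tightest, and M + iBRD9 was the most spread, with replicate 2 highest and replicate 4 lowest. Bcl2l11 fell by 0.24 ± 0.06 under RANKL in iBRD9 cells (adjusted p = 0.00241), a call lost without the 3 libraries with high Rps28, at -0.08 (adjusted p = 0.372). In vector cells the change of Bcl2l11 was -0.00 ± 0.06 (adjusted p = 0.967). The interaction, which compares these 2 responses, was -0.23 ± 0.09 and was not called (adjusted p = 0.206), but it was called without M + iBRD9 replicate 4 (-0.29, adjusted p = 0.0291) and was -0.08 without the 3 libraries. iBRD9 gave -0.11 ± 0.06 with RANKL (adjusted p = 0.52) and 0.13 ± 0.06 without it (adjusted p = 0.255), the second being called without M + iBRD9 replicate 4 (0.19, adjusted p = 0.0364) and at -0.013 without the 3 libraries.

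Bbc3 (ENSMUSG00000002083, chromosome 7, 16042318 to 16052130), which encodes PUMA, a BH3-only protein induced by p53, had 25.2, 26.3, 25.8 and 28.3 CPM in MR + iBRD9 and 26.1, 33.7, 26.8 and 26.9 CPM in MR + vector. Without RANKL, Bbc3 had 34.2, 38.3, 30.9 and 31.0 CPM in M + iBRD9 and 28.6, 31.4, 28.2 and 28.5 CPM in M + vector. The iBRD9 libraries with RANKL lay below all iBRD9 libraries without it, and the vector groups overlapped. Bbc3 fell by 0.35 ± 0.08 under RANKL in iBRD9 cells (adjusted p = 5.55e-04), also without the 3 libraries (-0.28, adjusted p = 0.0233), and its change in vector cells was -0.04 ± 0.08 (adjusted p = 0.732). The interaction of -0.31 ± 0.11 was not called (adjusted p = 0.182), so the responses of Bbc3 to RANKL were not shown to differ. iBRD9 gave -0.10 ± 0.08 with RANKL and 0.20 ± 0.08 without it (adjusted p = 0.658 and 0.129).

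M + iBRD9 thus held the widest spread among its libraries for several members. Its replicate 2 had the lowest Bcl2 and Bcl2l1 and the highest Bax, Bcl2l11 and Bbc3 of the 4 libraries, and its replicate 4 had the highest Bcl2 and Bcl2l1 and the lowest Bax and Bcl2l11.

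The mixture of pro-survival transcripts was described by the share of each gene in their summed FPKM, with no test. The A1 genes may be counted too low in that sum. Mcl1 made up 90.4% ± 0.89 of the sum in MR + iBRD9, 91.7% ± 0.78 in MR + vector, 85.7% ± 2.00 in M + iBRD9 and 83.3% ± 1.33 in M + vector (SD, n = 4 each). Bcl2l1 made up 7.67% ± 0.68 in MR + iBRD9, 6.59% ± 0.87 in MR + vector, 11.4% ± 2.21 in M + iBRD9 and 13.5% ± 1.23 in M + vector. With RANKL the Mcl1 share was at least 89.2% in every library, and without it at most 88.1%. The pro-survival sum was 250.02 ± 4.52 FPKM in MR + iBRD9, 279.5 ± 5.80 in MR + vector, 225 ± 5.77 in M + iBRD9 and 223 ± 3.22 in M + vector. The effectors Bax and Bak1 together amounted to 0.240 ± 0.032 of that sum in MR + iBRD9, 0.194 ± 0.0090 in MR + vector, 0.257 ± 0.023 in M + iBRD9 and 0.230 ± 0.0096 in M + vector. The 3 libraries with high Rps28 had the highest ratios, at 0.284 in MR + iBRD9 replicate 3, 0.274 in M + iBRD9 replicate 2 and 0.277 in M + iBRD9 replicate 3. The other 13 lay at or below 0.245. Bax is part of this ratio and drew notice to the 3 libraries, so their rank is no separate finding. The BH3-only genes amounted to 0.170 ± 0.0056 of the pro-survival sum in MR + iBRD9, 0.156 ± 0.0055 in MR + vector, 0.222 ± 0.0062 in M + iBRD9 and 0.219 ± 0.0076 in M + vector. Transcript ratios say nothing of the ratios of the proteins.

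Genes around the members were counted in 5 lists. Of their 53 tested genes, 23 rose and 8 fell under RANKL in vector cells, which is 58.5% beside 40.7% of all genes, and this difference was not tested. Of 16 other BCL2 family genes, 9 were tested, 3 rose and 1 fell, a share of 44.4%. Pmaip1, which encodes the BH3-only protein NOXA, a selective partner of MCL-1, averaged 41.9 ± 3.01 CPM in MR + iBRD9 and 41.4 ± 4.20 in MR + vector, against 14.5 ± 1.29 in M + iBRD9 and 15.2 ± 0.78 in M + vector. Pmaip1 rose by 1.44 ± 0.08 on the log2 scale in vector cells (adjusted p = 6.18e-16) and by 1.53 ± 0.08 in iBRD9 cells, so that the gene of a protein that binds MCL-1 rose in the same comparisons as Mcl1. Bnip3l, a mitophagy receptor gene, fell by 0.38 ± 0.05 in vector cells (adjusted p = 5.72e-08). The BH3-only gene Bmf rose by 0.63 ± 0.14 under RANKL in vector cells and by 0.52 ± 0.14 under iBRD9 without RANKL (adjusted p = 0.0198), and the second call was lost without the 3 libraries with high Rps28 or when any 1 of 4 libraries was left out.

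All 13 apoptosome and caspase genes were tested, and under RANKL in vector cells 3 rose and 1 fell, a share of 30.8%. Cycs, the gene of cytochrome c, rose by 0.39 ± 0.08 (adjusted p = 1.25e-04). Of 6 inhibitors of apoptosis, all tested, 5 rose and none fell, and Birc3, a ubiquitin ligase gene induced by NF-kB, averaged 243 ± 4.33 CPM in MR + iBRD9 and 231 ± 9.18 in MR + vector, against 51.8 ± 3.17 in M + iBRD9 and 46.7 ± 0.94 in M + vector. Birc3 rose by 2.31 ± 0.05 in vector cells (adjusted p = 8.64e-28), the largest change of the 5 lists there. The inhibitors called numbered 3 without M + vector replicate 3 or MR + vector replicate 2, where Birc2 and Birc5 lost their calls. Of 10 tested death receptor genes, 6 rose and 2 fell, among them the receptor gene Fas, at 1.42 ± 0.10 (adjusted p = 1.88e-13), and the kinase gene Ripk1, at -0.16 ± 0.04 (adjusted p = 0.00397). Of 15 regulators of the family, 6 rose and 4 fell, with Mdm2, the ligase of p53, at 0.50 ± 0.04 (adjusted p = 3.90e-13) and the transcription factor gene Foxo3 at -0.46 ± 0.06 (adjusted p = 5.52e-08). The falls depended on single libraries. They numbered 1 among the regulators without MR + vector replicate 3, 2 without MR + vector replicate 1 or M + vector replicate 4, and 1 among the death receptor genes without replicate 2 or 4 of MR + vector or replicate 2 or 3 of M + vector, and 2 among the other BCL2 family genes without MR + vector replicate 4. The list medians lay between 0.04 and 0.18.

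Of the 53 list genes, 1.89% were called under iBRD9 with RANKL, 9.43% under iBRD9 without RANKL and 3.77% in the interaction, beside 2.77%, 6.81% and 2.08% of all genes. With RANKL, Marchf5, a mitochondrial ubiquitin ligase gene known to act on MCL-1, was the only list gene called. Marchf5 averaged 71.8 ± 3.18 CPM in MR + iBRD9 and 83.6 ± 1.60 in MR + vector, and it fell by 0.22 ± 0.05 on the log2 scale (adjusted p = 0.00996). That call was lost without MR + iBRD9 replicate 2, at an adjusted p of 0.0542. Other list genes were called only under alternatives. The TNF receptor gene Tnfrsf1b, at -0.14 (adjusted p = 0.0516), was called by DESeq2, with only the 2 groups compared and with the replicate block. Ddit3, of the list of regulators, was at -0.38 (adjusted p = 0.0737). It was called without the 3 libraries with high Rps28, at -0.465 (adjusted p = 0.0205). Without RANKL, Cycs fell by 0.29 ± 0.08, while Fas rose by 0.36 ± 0.11, Tnfrsf1b, a TNF receptor gene, by 0.16 ± 0.04 and Foxo3 by 0.19 ± 0.06 (adjusted p = 0.0144 to 0.0406 for the 4 genes). Each of these 4 calls was lost without the 3 libraries with high Rps28 and in at least 4 of the 16 fits that left out 1 library. The interaction was called for Fas, at -0.56 ± 0.14 (adjusted p = 0.0287), and for Tnfrsf1b, at -0.30 ± 0.06 (adjusted p = 0.00577), and not without the 3 libraries. The Fas interaction was also lost in 6 of the 16 fits that left out 1 library (adjusted p up to 0.0929), and that of Tnfrsf1b in none of them.

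Genes with the most similar course over the 16 libraries were listed by the Pearson correlation of log2 CPM, as a description in which libraries of a group share their treatment. For Mcl1 these were Bmt2 (0.99), Samhd1 (0.96) and Cybb (0.96), and for Bcl2l1 Cyp51 (0.99), Plau (0.99) and Pcna (0.98). For Bcl2 they were Azin1, Hsd17b7 and Lrp8, at 0.90 to 0.92, and for Bid Ap2m1, Snx6 and Snx2, each at 0.96. For Bax they were the ribosomal protein genes Rps28, Rpl38 and Rpl39, at 0.94 to 0.96, as the plot of Bax against Rps28 shows. Bak1 had no gene above 0.77, which was Plekhj1, ahead of Fxyd5 and Rpl37a. Bcl2l11 went with Akap8l, Mapkapk3 and Ddi2, at 0.85 to 0.90, and Bbc3 with Map3k11, Acad8 and Ulk1, at 0.86 to 0.88. For the sparse A1 rows the nearest were Ing2, Mctp1 and Penk for Bcl2a1b and Cobll1, Arhgap30 and Vps39 for Bcl2a1d. Among the members, Bcl2l1 and Bid were the most alike pair, at 0.90, and Mcl1 and Bcl2l1 the most opposed, at -0.90.

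The promoters of the members, 250 bases before to 50 bases after the start site in RefSeq (GRCm38.p6), were searched on both strands for the NF-kB (kB) site and for the forkhead motif GTAAACA. The plan limited this search to members called under RANKL in vector cells with a change above a set size. None met it, and all members were searched instead. All 10 members had a promoter in that table, 15 in all. Some genes have several promoters, and 2 of Bbc3 overlap, so the 15 are not separate units. The kB site was found in 2 of the 15, beside 4.51% of all promoters, and the forkhead motif in 2, beside 3.65%. The kB matches belonged to promoters of Bcl2l1 and Bbc3 and the forkhead matches to promoters of Bbc3 and Bcl2l11.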

How the data were processed

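RNA sequencing libraries (NEBNext Ultra II kit) were made for 16 samples. According to the submitters' processing notes, the reads were trimmed with cutadapt, aligned to GRCm39 with HISAT2 and counted with HTSeq. The authors deposited raw read counts per gene and library, and FPKM values that the authors made from the same counts and a gene length. The strand setting and the annotation release are not given in the sources used here, so overlapping genes may share reads.

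The counts were scaled to CPM using TMM factors. All 16 libraries entered 1 fit of the edgeR 4.0.16 quasi-likelihood test (R 4.3.3), two-sided, after filterByExpr, which left 11559 genes, with a mean per group, no covariate and 12 residual degrees of freedom. The common biological coefficient of variation was 5.86%. Unless another fit is named, every adjusted p comes from this test, with Benjamini-Hochberg adjustment over all genes tested (in other fits, over the genes tested there), and a gene was called below 0.05. Changes are log2 estimates ± SE, and group values are means ± SD. Limits from counts of 0 cover counting error only, whereas the 95% intervals of changes come from the fit and include the spread among libraries. The intervals hold for 1 gene at a time and are not adjusted for the number of genes tested. The script was tested on simulated data.

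The 24 pairs of libraries within groups differed by more than counting error (chi-square per degree of freedom 2.81 to 11.6). The alternatives were DESeq2 1.42.0 and its size factors, total counts, other filters, only the groups compared, a replicate block, each library left out and the A1 copies summed. The members, gene lists and the rule for named genes were chosen with earlier results of these data known. The rule took all members, 3 control genes, of each list the called genes with the largest rise and fall under RANKL in vector cells, each list gene called under iBRD9 or in the interaction, the other A1 copies and the 3 genes most like each member. Ddit3 was named outside this rule, and some genes of the lists are counted but not reported by name here. Coding sequences came from GENCODE and promoters from RefSeq.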

Additional observations from a re-analysis of the deposited data

Results flagged for a closer look

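In groups of 4 libraries, 1 library lay far from the other 3 in 4 of the 40 combinations of member and group, where chance gives about 1 in 20. Bcl2 in M + iBRD9 replicate 2 was at 10.7 CPM, below the other libraries of its group. Bax in M + vector replicate 4 was at 42.4 CPM, the lowest of its group. Bbc3 was highest in replicate 2 of both vector groups, at 33.7 CPM in MR + vector and 31.4 CPM in M + vector.

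The response to iBRD9 differed between cells with and without RANKL, by the interaction term of the edgeR fit, for Mcl1 (-0.26 on the log2 scale), Bcl2 (0.62), Fas (-0.56), Tnfrsf1b (-0.30) and the control gene Csf1r (-0.25). Without the 3 libraries with high Rps28, the interaction was called for none of Mcl1, Bcl2, Fas and Tnfrsf1b.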

How the results depend on the processing

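The 16 called changes of single members were recomputed under 384 alternatives in all, of which 374 kept the call and its direction, 10 lost the call and none turned. The 34 changes not called had 810, of which 11 were called and 57 changed sign without a call. In comparisons of 2 groups, the alternatives include fits without a library of another group. Such fits can hardly move an estimate, so the counts of kept results overstate stability. The 32 shares and ratios of FPKM were also recomputed from CPM and gene length. Both measures use the same counts and lengths, and the library factor cancels within a library. That agreement was therefore fixed in advance and says nothing of their stability. With only the 2 groups compared, 499 genes were called under iBRD9 with RANKL and 452 under iBRD9 without it, against 320 and 787 in the fit of all 16 libraries. With no filter, 2 members were called under iBRD9 without RANKL, and 388 genes in the interaction, where DESeq2 called 382 against 241. By the study's own kind of threshold (unadjusted p below 0.05 and at least 1.2-fold, here with DESeq2), Bcl2a1b passed with RANKL and Bcl2 without it. Mcl1 missed the fold. The pass of Bcl2a1b rests on 8 reads in MR + iBRD9 against 26 in MR + vector, and its DESeq2 adjusted p was 0.245. The share of all genes that pass this threshold is not given here. Leaving out 1 library at a time gave 199 to 411 genes under iBRD9 with RANKL (fewest without MR + vector replicate 2), 463 to 1104 under iBRD9 without RANKL (fewest without M + iBRD9 replicate 2, most without replicate 4) and 73 to 541 in the interaction (fewest without MR + vector replicate 2 or MR + iBRD9 replicate 4, most without M + iBRD9 replicate 4). The members called were 1 to 4 in each of the last 2. The members called under RANKL in vector cells stayed 4 in number, but without MR + vector replicate 4 Bcl2a1b was called in place of Bcl2a1d. Bcl2 was also called under RANKL in vector cells with only those 2 groups compared (adjusted p = 0.0455). At a minimum of 1 CPM in 4 libraries Bcl2a1b was not tested. The cause of these differences was not tested.

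Without the 3 libraries with high Rps28, an alternative chosen after seeing the data, 5 members were called under RANKL in iBRD9 cells, 236 genes under iBRD9 without RANKL, and 0 members and 32 genes in the interaction. That fit also has fewer libraries, and the part of each cannot be told apart. Its lower iBRD9 changes of Bax were fixed by the choice of libraries, which came to notice for their high Bax.

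The correlation of deviations between libraries of the same replicate number had a median of 0.017 (-0.044 to 0.13, over 0.1 in 2 of 24 pairs). The median was -0.014 for other numbers, and 6 of 16 libraries were closest to their own number. With the replicate number as a block, 4924 genes were called under RANKL in vector cells (4709 without the block) and 5999 in iBRD9 cells (5826). Under iBRD9 the block gave 417 genes with RANKL (320) and 1025 without RANKL (787), and 421 in the interaction (241). With the block, 2 members were called under iBRD9 without RANKL, Bcl2l1 beside Bcl2. The block changed no other member's call. Whether libraries of the same number share a source was not tested.

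Changes that were not called with all libraries turned sign under some alternatives, with no call where the sign turned. Under RANKL in vector cells, Bak1 gave 0.0018 with the size factors or the test of DESeq2, 0.022 with total counts, 0.0062 with the 1 CPM filter, 0.0025 without the 3 libraries and -0.022 to 0.028 with 1 library left out, and Bcl2l11 gave 0.018 with total counts, 0.0019 with the 1 CPM filter and -0.030 to 0.039 with 1 library left out. Under RANKL in iBRD9 cells, Bak1 gave -0.054 without the 3 libraries and -0.070 to 0.084 with 1 left out, and Bax -0.082 to 0.10. Under iBRD9 with RANKL, Bid gave 0.012 with total counts, 0.0060 without the 3 libraries and -0.036 to 0.012 with 1 left out, Bcl2 -0.043 to 0.088, Bcl2l1 -0.018 to 0.10 and Bcl2a1d -0.040 to 0.24, and the summed A1 row -0.10 in place of Bcl2a1d. Under iBRD9 without RANKL, Bcl2a1b gave 0.11 without the 3 libraries and -0.23 to 0.28 with 1 left out, the summed A1 row 0.14, Bax -0.011 and Bcl2l11 -0.013 without the 3 libraries, against 0.21 and 0.13 with all libraries. In the interaction, without the 3 libraries, Bcl2a1d gave 0.039, Bax 0.036 and Bak1 -0.057, and with 1 library left out Bcl2a1d gave -0.23 to 0.056, Bax -0.18 to 0.0001 and Bak1 -0.071 to 0.084.

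Depth limits the A1 rows most, as the counts per library show. A p that misses the threshold does not show that a gene stayed the same.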
